A study of Mus musculus with 6 samples.

Results

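The genes described here are 10 inhibitors and feedback regulators of TGFβ signaling, found by gene symbol among the 21240 genes of a raw count table. They comprise the inhibitory Smads (Smad6 and Smad7), the ubiquitin ligases Smurf1 and Smurf2, the nuclear corepressors Ski, Skil and Tgif1, and the membrane inhibitors Bambi, Pmepa1 and Ldlrad4. All 10 had a row in the table. They were looked up by symbol, but the list was chosen with earlier results of these data known. The counts came from stranded total RNA of NMuMG cells, an immortal epithelial line of normal mouse mammary gland in which TGFβ induces an epithelial-mesenchymal transition. Cells grown in 10% serum with insulin at 10 µg/ml were kept without serum and without insulin for 6 h. TGFβ1 (5 ng/ml) was then added for 2 h or for 12 h, and control cells were given the albumin-containing vehicle for 2 h. There were 2 biological replicates in each of the 3 groups, 6 libraries in all, from this single line. Because vehicle was sampled at 2 h alone, TGFβ and a longer time without serum and insulin cannot be told apart at 12 h.

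TGFβ binds a pair of transmembrane kinases, and the type I receptor phosphorylates Smad2 and Smad3, which join Smad4 and act on transcription in the nucleus. The pathway is known for negative feedback: inhibitory Smads occupy the activated receptor and bring ubiquitin ligases to it, corepressors bind the Smads on DNA, and membrane proteins keep Smads or ligands from the receptor. Several of these genes are textbook direct targets of the Smads, and mammary epithelial cells are a classic system in which the pathway has been studied.

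Total counts per library ranged from 14705886 to 23786993. Values are given as counts scaled to library size (CPM) after scaling by edgeR's TMM factors, which lay between 0.961 and 1.07. Scaling by total counts moved the median log2 fold change (log2FC) of all tested genes by -0.11 at 2 h and by -0.13 at 12 h, and it turned the direction of none of the members' called changes. Epithelial identity was uneven in the marker genes: Krt8, Krt18, Krt19 and Cdh1 were abundant, whereas Epcam averaged 0.182 CPM in vehicle, 0.177 CPM at 2 h and 0.528 CPM at 12 h. Cldn3 and Esrp1 did not exceed 0.152 CPM in any library, and Krt7 averaged 1.45 CPM in vehicle. Esrp2 and Ocln averaged 67.3 and 74.6 CPM in vehicle. The summed level of 10 epithelial markers was 5091 to 5944 CPM in vehicle, 6611 to 6612 CPM at 2 h and 10452 to 10508 CPM at 12 h. Krt8 and Krt18 carried that sum, with log2FC of 1.63 and 1.53 at 12 h, whereas Krt19 fell (-1.95, edgeR adjusted p 0.000103) and Cdh1 was at -0.07 (adjusted p 0.762). The 7 fibroblast markers summed to 3.57 to 5.24 CPM in vehicle, 9.13 to 9.72 CPM at 2 h and 14.8 to 16.6 CPM at 12 h, and among them Col1a1 averaged 0.961, 5.79 and 10.9 CPM while Thy1 was at 0. Endothelial markers stayed at or below 1.95 CPM and adipocyte markers at or below 0.304 CPM in each library. Haematopoietic markers summed to 5.10 to 7.39 CPM and myoepithelial markers to 2.55 to 11.8 CPM. The part of these markers in the members' changes was not tested. In bulk RNA, fewer cells of a kind and less RNA per cell cannot be told apart.

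Promoter sequence was used for 5 of the 10 genes, and no window was examined for Smad7, Skil, Bambi, Pmepa1 and Ldlrad4. Smad6 had fallen back by 12 h, Ski and Smurf1 had fallen in part, and Smurf2 stayed up. Because these 4 genes had unlike time courses, their windows are shown. Each runs 5′ to 3′ from 250 bases before the RefSeq start to 50 bases after, on the minus strand of GRCm38.p6, a later build than the one used for counting. Capitals mark the Smad-binding element core CAGAC on either strand, and its palindromic form GTCTAGAC. The windows lie at chr9:64022010-64022309 for Smad6, chr4:155222486-155222785 for Ski, chr5:144965781-144966080 for Smurf1 and chr11:106920666-106920965 for Smurf2.
Smad6: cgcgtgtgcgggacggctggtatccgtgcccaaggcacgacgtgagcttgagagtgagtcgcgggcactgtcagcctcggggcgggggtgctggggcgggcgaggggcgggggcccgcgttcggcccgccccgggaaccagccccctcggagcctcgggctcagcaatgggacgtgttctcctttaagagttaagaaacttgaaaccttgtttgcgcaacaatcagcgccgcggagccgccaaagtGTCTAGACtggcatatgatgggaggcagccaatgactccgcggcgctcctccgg
Ski: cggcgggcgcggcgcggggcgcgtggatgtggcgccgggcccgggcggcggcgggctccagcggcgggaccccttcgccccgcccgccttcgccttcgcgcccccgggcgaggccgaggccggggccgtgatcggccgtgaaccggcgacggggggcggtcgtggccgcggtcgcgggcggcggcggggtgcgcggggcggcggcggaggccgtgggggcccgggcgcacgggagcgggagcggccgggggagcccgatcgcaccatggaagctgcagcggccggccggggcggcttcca
Smurf1: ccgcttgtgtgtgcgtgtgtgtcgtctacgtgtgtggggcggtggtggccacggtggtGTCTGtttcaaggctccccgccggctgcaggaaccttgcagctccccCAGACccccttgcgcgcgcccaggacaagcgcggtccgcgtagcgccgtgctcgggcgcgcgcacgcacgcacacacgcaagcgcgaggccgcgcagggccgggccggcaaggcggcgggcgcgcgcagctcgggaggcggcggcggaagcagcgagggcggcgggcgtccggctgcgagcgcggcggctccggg
Smurf2: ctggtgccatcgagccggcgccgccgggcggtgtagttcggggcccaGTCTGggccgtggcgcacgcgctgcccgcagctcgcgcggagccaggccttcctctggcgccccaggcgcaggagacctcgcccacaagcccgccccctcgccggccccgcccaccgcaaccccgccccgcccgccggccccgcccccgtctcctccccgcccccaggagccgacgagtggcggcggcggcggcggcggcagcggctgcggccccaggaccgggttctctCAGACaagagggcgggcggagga
In the Smad6 window the palindrome GTCTAGAC begins at position -4 and spans the start site. That sequence was present in 70 of 32851 RefSeq promoter windows of this length (0.213%), and in 0.172% of the 5809 windows with a GC content above 65%. The core CAGAC was far more common, occurring in 49.6% of windows and in 40.7% of those above 65% GC. It was found at -192 and -145 in Smurf1 and at -203 and 28 in Smurf2, and these letters did not occur in the Ski window, which had a GC content of 85.3%. The GC-rich Smad motif GGCGC, searched on both strands as well, was present in 36.9% of all windows but in 90.9% of those above 65% GC, and in 7 of the 9 windows of these genes (Tgif1 has 5 windows). An AP-1 site, TGANTCA, occurred in 7.81% of windows, in 2.53% of those above 65% GC and in none of the 9. A match is a description of the letters and not of binding.

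After 2 h of TGFβ, both 2 h libraries lay above both vehicle libraries for 10 of 10 genes. These were the 9 genes tested, against 28.3% of all tested genes, and Bambi, which had 11 to 17 counts in vehicle and 28 to 41 at 2 h. Pmepa1 rose most, 12.0-fold, followed by Ski (7.47-fold), Ldlrad4 (6.54-fold), Skil (4.25-fold) and Smad7 (4.19-fold). Bambi was below the abundance needed for a test, which left 9 genes among the 11080 that reached 2 CPM in 2 or more libraries. All 9 tested genes rose at a Benjamini-Hochberg adjusted p under 0.05 in edgeR's quasi-likelihood test, where 9.91% of all tested genes rose and 5.25% fell. Of the 9, 8 also passed a log2FC of 1 (robust upregulation), a mark reached by 4.23% of tested genes, and the exception was Smurf2. Their median log2FC was 2.07, with a range of 0.73 to 3.59, against a median of -0.01 over all tested genes.

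At 12 h, 8 of the 9 tested genes were still above vehicle at an adjusted p under 0.05 (edgeR), compared with 21.8% of all tested genes, while 21.5% of tested genes fell. Robust upregulation applied to 6 of them (8.03% of tested genes), since Smurf1 and Smurf2 were below a log2FC of 1 and Smad6 was back at its vehicle level. The median log2FC of the 9 genes was 2.04, with a range of -0.08 to 3.83, and that of all tested genes was 0.02. Both 12 h libraries lay above both vehicle libraries for 8 of the 9 tested genes, against 39.5% of all tested genes, with Smad6 overlapping. Bambi, not tested, lay below vehicle. Comparisons with vehicle at 2 h and 12 h share the vehicle libraries, so the plot of one against the other shows each gene's values and gives no independent agreement.

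**Figure D1:**
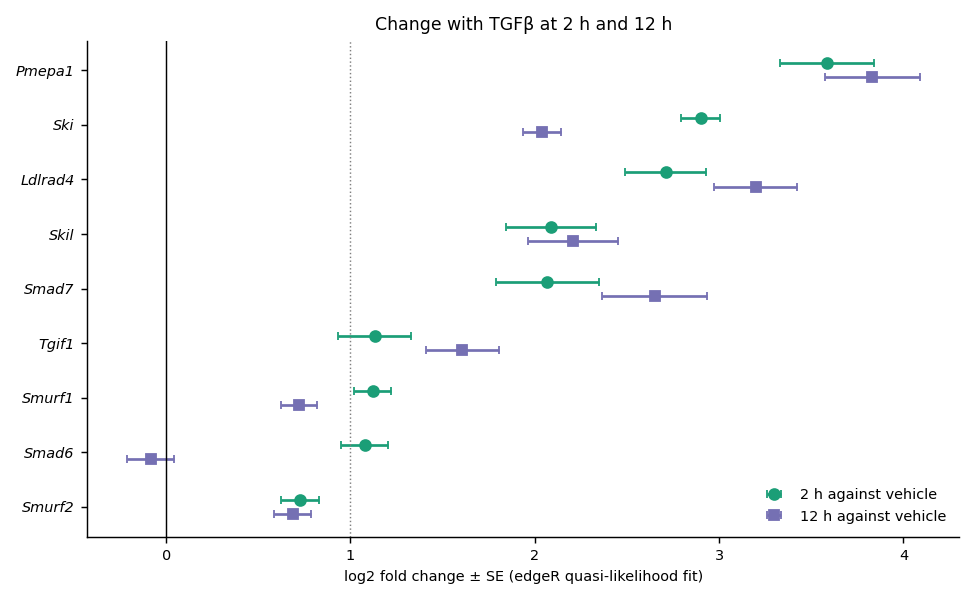
Log2 fold change of each tested gene at 2 h and 12 h against vehicle, from the edgeR fit; bars are standard errors and the dotted line marks a log2FC of 1. All 9 genes lie above 0 at 2 h, and Smad6 returns to -0.08 at 12 h, while Pmepa1 reaches 3.83.

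**Figure D2:**
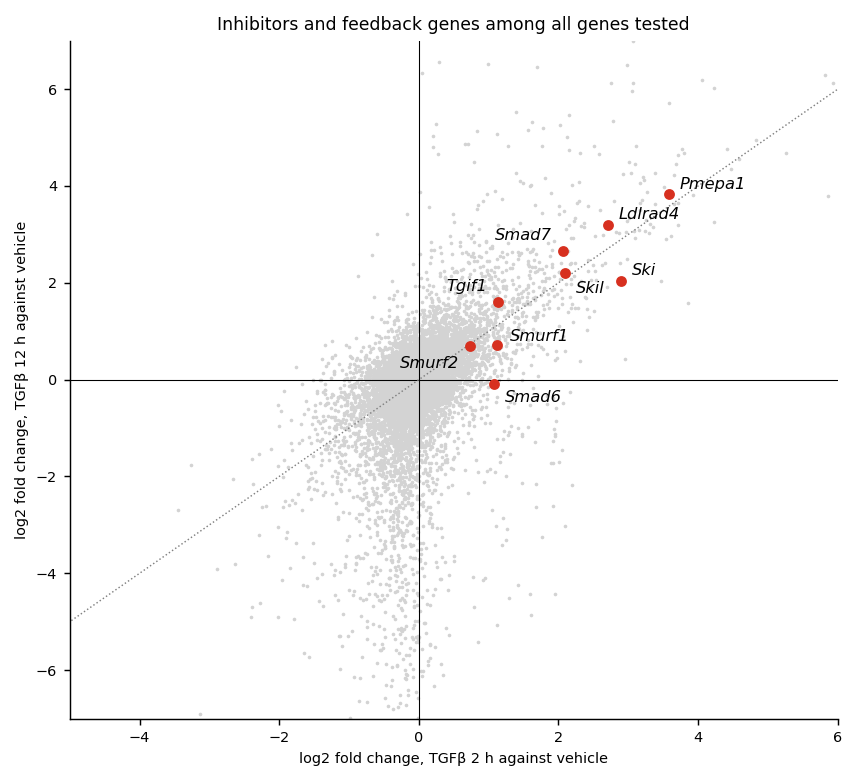
Log2 fold change at 12 h (vertical axis) against that at 2 h (horizontal axis), both against vehicle; grey points are the tested genes, of which 36 lie outside the axes, and red points the 9 tested inhibitors and feedback genes. The dotted line marks equal change; Smad6, Ski and Smurf1 lie below it by more than their errors.

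Between 2 h and 12 h, of the 9 tested, 3 fell (Smad6, Ski and Smurf1) at an adjusted p under 0.05 in edgeR, against 18.9% of all tested genes, and 0 rose, against 15.2%. The count of rises came from the fit without a replicate block. With a block on the replicate number, Smad7, Tgif1 and Ldlrad4 were called higher at 12 h, though the labels do not say that these numbers pair the samples. Limma-voom and DESeq2, also without a block, called 0 rises. In the edgeR fit without a block, 2 genes, Tgif1 and Ldlrad4, had a higher level at an unadjusted p under 0.05. Counting libraries alone, 3 genes had both 12 h libraries above both 2 h libraries (Smad7, Tgif1 and Ldlrad4), 4 had both below (Smad6, Smurf1, Ski and Bambi) and 3 overlapped (Smurf2, Skil and Pmepa1). These shares were near those of all tested genes, 34.8% of which lay above and 34.2% below in this way.

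**Figure D3:**
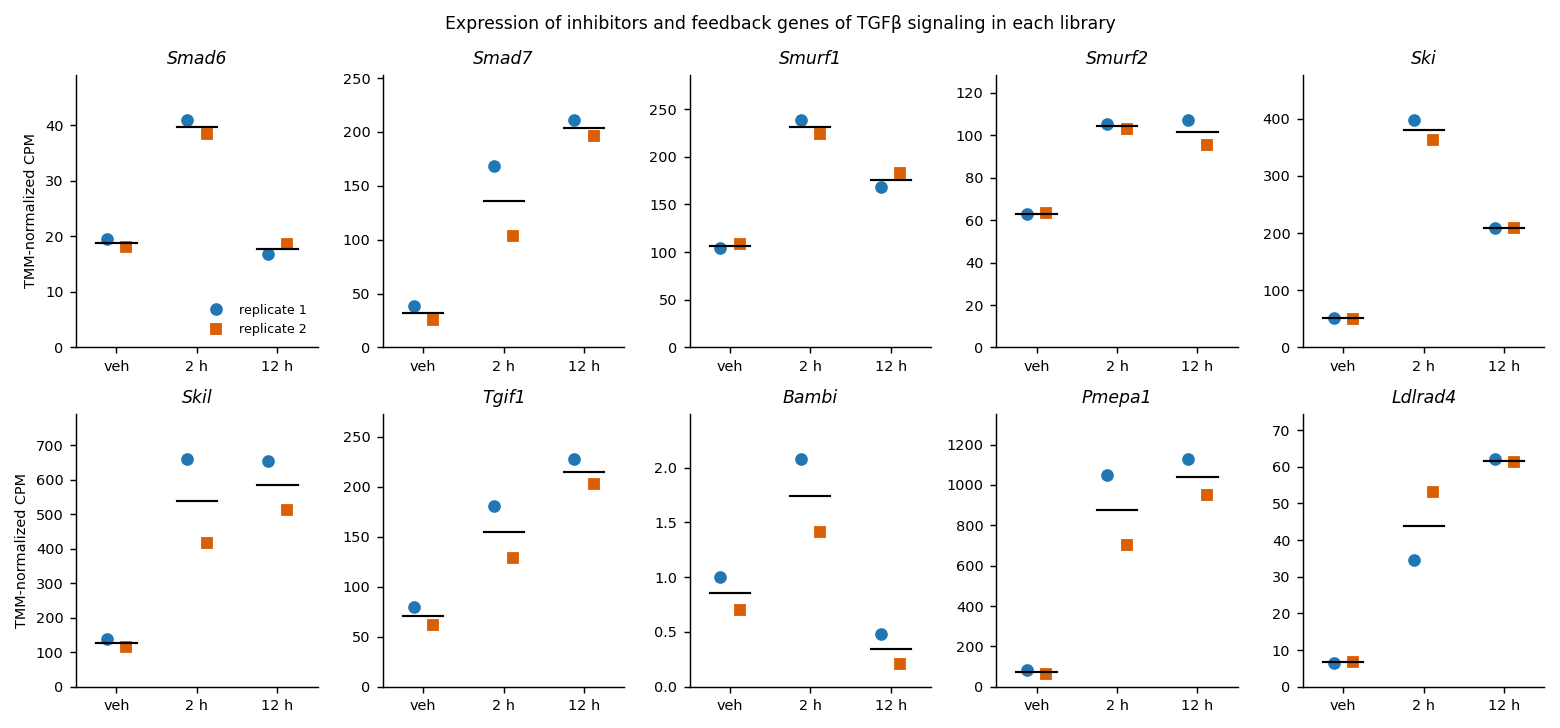
TMM-normalized CPM of each gene in the 6 libraries, 1 panel per gene, with vertical axes that start at 0 and differ in scale; circles are replicate 1, squares replicate 2, and the line is the mean of a group. Smad6 peaks at 2 h and is back between 16.8 and 18.7 CPM at 12 h, whereas Smad7 and Tgif1 are highest at 12 h and Bambi does not exceed 2.08 CPM.

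The inhibitory Smads lack the phosphorylation motif of receptor-regulated Smads and occupy activated type I receptors in their place. Smad7 (Entrez 17131), which acts on the TGFβ and activin branches as well as the BMP branch, was at 38.9 and 25.9 CPM in vehicle, 168.6 and 103.1 CPM at 2 h, and 211 and 195.9 CPM at 12 h. Both times lay well above vehicle, and the 2 h libraries were themselves far apart. Its log2FC was 2.07 (SE 0.280, edgeR adjusted p 0.00484) at 2 h and 2.65 (SE 0.285, adjusted p 0.000589) at 12 h. The further difference of 0.58 between the times did not pass the test without a replicate block (SE 0.265, adjusted p 0.136). Without replicate 1 of the 2 h group it was 0.98, but without replicate 2 of that group it was 0.27. With a block on the replicate number, a pairing that the labels do not state, the difference was 0.63 (edgeR adjusted p 0.00470).

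Smad6 (Entrez 17130, chr9:63800953-63869866, minus strand, NCBIM37), known mainly as an antagonist of BMP signaling, was at 19.5 and 18.1 CPM in vehicle, 41.0 and 38.4 CPM at 2 h, and 16.8 and 18.7 CPM at 12 h. The 2 h libraries stood apart from the other 4, and the 12 h libraries overlapped vehicle. These levels correspond to 284 to 331 counts in vehicle, 760 to 809 counts at 2 h and 364 to 385 counts at 12 h. The rise was 2.11-fold at 2 h (log2FC 1.08, SE 0.128, edgeR adjusted p 0.00304). At 12 h the log2FC against vehicle was -0.08 (SE 0.129, adjusted p 0.630), and the fall from 2 h was -1.16 (SE 0.128, adjusted p 0.00117). With total-count scaling its 2 h log2FC was 0.97, just short of the robust mark.

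The ratio of Smad7 to Smad6 counts was 1.99 and 1.43 in the vehicle libraries, 4.12 and 2.69 at 2 h, and 12.6 and 10.5 at 12 h. Each step in the design was thus larger than the gap between replicates, on a scale that does not depend on library scaling. In log2 units the ratio was 0.98 above vehicle at 2 h and 2.76 above at 12 h. For the 4 TGFβ libraries against the 2 vehicle libraries the two-sided exact permutation p was 0.133 (difference 1.87, adjusted p 0.222 over 5 pairs of related genes). The smallest p that 15 arrangements of 6 libraries allow is 0.0667, so no ratio could reach 0.05. For each pair the test pooled 2 h with 12 h, so its p also depends on the gap between the times.

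**Figure D4:**
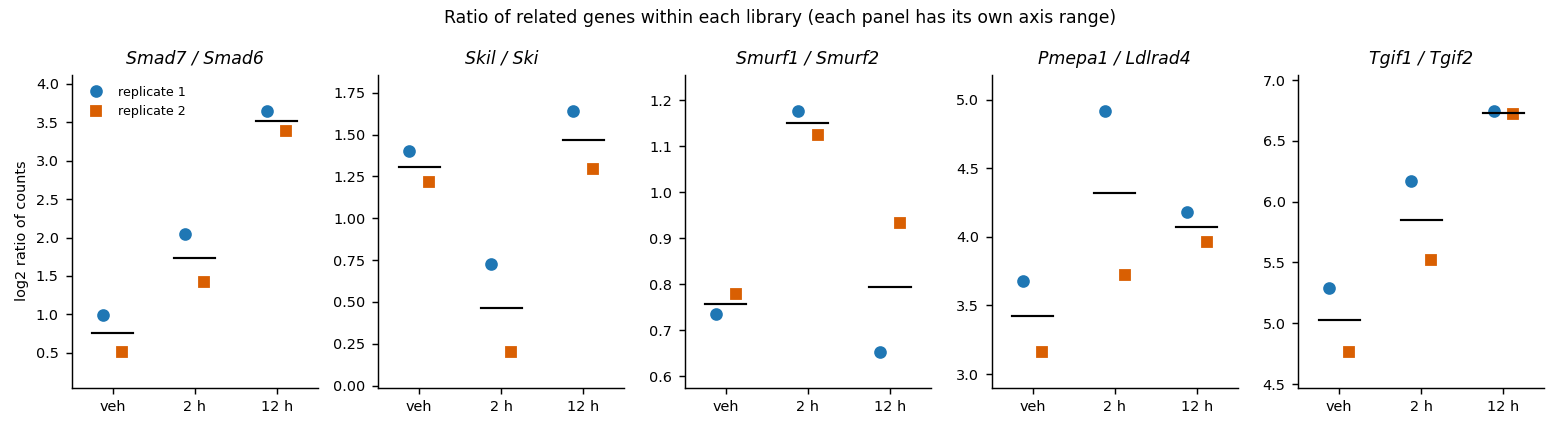
Ratio of raw counts of related genes in each library, on a log2 axis that differs between panels, for Smad7 to Smad6, Skil to Ski, Smurf1 to Smurf2, Pmepa1 to Ldlrad4 and Tgif1 to Tgif2; points are libraries and lines are group means. The Smad7 to Smad6 ratio climbs from 1.43 and 1.99 in vehicle to 10.5 and 12.6 at 12 h, and the Skil to Ski ratio is lowest at 2 h.

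Smurf1 and Smurf2 are HECT-type ubiquitin ligases that inhibitory Smads carry to receptors and that also mark Smads for degradation. Smurf1 (Entrez 75788, chr5:145637364-145726716, minus strand, NCBIM37) was at 104 and 108 CPM in vehicle, 238 and 224 CPM at 2 h, and 169 and 182 CPM at 12 h. The 3 groups did not overlap, with 12 h between vehicle and 2 h. It rose 2.17-fold at 2 h (log2FC 1.12, SE 0.10, edgeR adjusted p 0.00114) and was 1.65-fold above vehicle at 12 h (log2FC 0.72, SE 0.0996, adjusted p 0.00165). On the CPM scale, 55.3% of the level added at 2 h remained at 12 h. The fall between the times (-0.40, SE 0.0987, adjusted p 0.0218) lost its call without replicate 1 of the 2 h group (-0.35, adjusted p 0.0541), without replicate 1 of the 12 h group (-0.35, adjusted p 0.145) and without replicate 2 of the 12 h group (-0.46, adjusted p 0.0802).

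Smurf2 (Entrez 66313, chr11:106681380-106782029, minus strand, NCBIM37) had the smallest rise of the 9 at 2 h. It was at 62.7 and 63.2 CPM in vehicle, 105 and 103 CPM at 2 h, and 107 and 95.5 CPM at 12 h. The times overlapped each other and lay above vehicle. Its log2FC was 0.73 (SE 0.102, edgeR adjusted p 0.00547) at 2 h, where it missed the threshold without replicate 1 of the vehicle group (0.72, adjusted p 0.0534), and 0.69 (SE 0.102, adjusted p 0.00221) at 12 h. The difference between the times was -0.04 (SE 0.10, adjusted p 0.786). The Smurf1 to Smurf2 count ratio was 1.67 and 1.72 in vehicle, 2.26 and 2.18 at 2 h, and 1.57 and 1.91 at 12 h (TGFβ minus vehicle 0.21 in log2, exact permutation p 0.333, adjusted p 0.417).

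Ski and Skil (also called SnoN) are related nuclear proteins that bind Smad complexes and recruit histone deacetylases to their targets. Ski (Entrez 20481, chr4:154528184-154596701, minus strand, NCBIM37) was at 51.9 and 49.8 CPM in vehicle, 398 and 363 CPM at 2 h, and 209.5 and 209.4 CPM at 12 h. Its 3 groups were far apart relative to the spread between replicates. The log2FC was 2.90 (SE 0.106, edgeR adjusted p 0.000109) at 2 h and 2.04 (SE 0.103, adjusted p 4.90e-05) at 12 h, and the fall between them was -0.86 (SE 0.0981, adjusted p 0.00133). On the CPM scale, 48.1% of the level added at 2 h remained at 12 h.

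Skil (Entrez 20482, chr3:30993980-31021499, plus strand, NCBIM37) was at 137 and 116 CPM in vehicle, 659 and 418 CPM at 2 h, and 654 and 513 CPM at 12 h. The TGFβ libraries of both times overlapped one another and lay above vehicle. Its log2FC was 2.09 (SE 0.244, edgeR adjusted p 0.00288) at 2 h and 2.21 (SE 0.245, adjusted p 0.000659) at 12 h, with 0.12 between the times (SE 0.233, adjusted p 0.724). Skil exceeded Ski 2.64- and 2.33-fold in raw counts in vehicle, 1.66- and 1.15-fold at 2 h, and 3.12- and 2.45-fold at 12 h. Against vehicle this ratio changed by -0.84 in log2 at 2 h and by 0.16 at 12 h, and the pooled TGFβ difference, which averages these opposite changes, was -0.34 (exact permutation p 0.600, adjusted p 0.600).

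Tgif1 (Entrez 21815, chr17:71193545-71202886, minus strand, NCBIM37) encodes a homeodomain protein that competes with coactivators for Smad2 and Smad3. It was at 79.5 and 61.6 CPM in vehicle, 181 and 129 CPM at 2 h, and 227 and 203 CPM at 12 h. The 3 groups did not overlap and increased in that order. Its log2FC was 1.13 (SE 0.198, edgeR adjusted p 0.0127) at 2 h, the weakest of the 9 by p, and it lost the call without replicate 2 of the vehicle group (0.96, adjusted p 0.0750) and when only the vehicle and 2 h groups were fitted (1.13, adjusted p 0.0504). At 12 h it was 1.61 (SE 0.200, adjusted p 0.00106). The difference of 0.48 between the times had an adjusted p of 0.105 in edgeR (SE 0.194). Without replicate 1 of the 2 h group it was 0.74, but without replicate 2 of that group it was 0.25. It was called with a block on the replicate number.

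Its paralog Tgif2, a related corepressor and no member of the set, stayed at 1.90 to 2.78 CPM in the 6 libraries. The Tgif2 log2FC was 0.31 at 2 h (edgeR adjusted p 0.465) and -0.08 at 12 h (adjusted p 0.826). Tgif1 exceeded Tgif2 39.7- and 27.6-fold in vehicle, 72.8- and 46.4-fold at 2 h, and 108.6- and 106.7-fold at 12 h, a log2 difference of 1.26 between TGFβ and vehicle (exact permutation p 0.133, adjusted p 0.222).

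Pmepa1 (Entrez 65112, chr2:173049959-173102034, minus strand, NCBIM37) is a membrane protein that binds Smad2 and Smad3 and keeps them from the receptor. It was at 84.0 and 62.0 CPM in vehicle, 1050 and 703 CPM at 2 h, and 1127 and 952 CPM at 12 h. Both times were far above vehicle and overlapped each other. Its log2FC was 3.59 (SE 0.254, edgeR adjusted p 0.000502) at 2 h and 3.83 (SE 0.257, adjusted p 0.000110) at 12 h, and the difference of 0.25 between them did not pass (SE 0.228, adjusted p 0.440). Among all tested genes it ranked 38 from the top by log2FC at 2 h and 88 at 12 h.

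Ldlrad4 (Entrez 52662) is a relative of Pmepa1 that binds Smads in the same manner. It was scarce in vehicle, at 6.54 and 6.88 CPM, and reached 34.7 and 53.1 CPM at 2 h and 62.0 and 61.2 CPM at 12 h. The 3 groups did not overlap. Its log2FC was 2.71 (SE 0.221, edgeR adjusted p 0.000823) at 2 h and 3.20 (SE 0.224, adjusted p 0.000130) at 12 h. The difference of 0.49 between the times had an adjusted p of 0.10 in edgeR (SE 0.196). Without replicate 2 of the 2 h group it was 0.83, but without replicate 1 of that group it was 0.21. It was called with a block on the replicate number. In raw counts Pmepa1 exceeded Ldlrad4 12.9- and 9.0-fold in vehicle, 30.3- and 13.2-fold at 2 h, and 18.2- and 15.6-fold at 12 h (TGFβ minus vehicle 0.78 in log2, exact permutation p 0.133, adjusted p 0.222).

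Bambi (Entrez 68010), a pseudoreceptor that resembles a type I receptor but lacks a kinase domain, was near the limit of detection. It had 17 and 11 counts in vehicle, 41 and 28 at 2 h, and 11 and 4 at 12 h, or 1.00 and 0.701, 2.08 and 1.41, and 0.479 and 0.205 CPM. The groups did not overlap, with 2 h the highest and 12 h the lowest. When genes of low abundance were kept in the edgeR fit, the log2FC was 1.03 at 2 h (adjusted p 0.232) and -1.27 at 12 h (adjusted p 0.112). The fall from 2 h to 12 h then passed, at -2.30 (SE 0.501, adjusted p 0.00936).

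Corrected for exon length (CPM per kb of GENCODE exons), the order of levels changed with treatment. In vehicle Tgif1 stood highest at 20.9 CPM per kb, followed by Smurf1 (16.8), Pmepa1 (14.9), Skil (13.1), Smurf2 (10.2), Ski (9.15), Smad7 (7.16), Smad6 (5.99), Ldlrad4 (2.54) and Bambi (0.169). The ranges of Smurf1 and Pmepa1, of Pmepa1 and Skil, and of Smad7 and Smad6 overlapped.
At 2 h Pmepa1 led at 178 CPM per kb, above Ski (68.4), Skil (55.5), Tgif1 (45.9), Smurf1 (36.5), Smad7 (30.1), Smurf2 (16.9), Ldlrad4 (16.6), Smad6 (12.6) and Bambi (0.346), and the neighbours Ski and Skil, Skil and Tgif1, Smurf1 and Smad7, and Smurf2 and Ldlrad4 overlapped. By 12 h Pmepa1 was at 212 CPM per kb, followed by Tgif1 (63.8) and Skil (60.2), which overlapped. Below them, without overlap between neighbours, came Smad7 (45.0), Ski (37.7), Smurf1 (27.7), Ldlrad4 (23.3), Smurf2 (16.4), Smad6 (5.66) and Bambi (0.0680).

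For many of these genes the replicates differed in the same direction, some of them only slightly. Replicate 1 exceeded replicate 2 for 7 of the 10 genes in vehicle, 9 at 2 h and 8 at 12 h, whereas it did so for 49.6%, 49.2% and 42.8% of all tested genes. At 2 h the ratio of replicate 1 to replicate 2 ran from 0.653 for Ldlrad4, the only gene lower in replicate 1, to 1.64 for Smad7. Small differences are included in these counts, such as ratios of 1.03 for Smurf2 and 1.06 for Smurf1 at 2 h. At 12 h the ratio was 1.001 for Ski and 1.01 for Ldlrad4. The cause was not tested.

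The genes whose profiles over the 6 libraries were most like those of the members, by Euclidean distance between log2 levels centred on each gene's mean, were ranked among 10003 genes with a mean of at least 5 CPM. Smad6 was closest to Ccdc88c and Mapk14, Smurf1 to Sh3tc1 and Lhfpl2, Ski to Mex3b and Cdh6, and Ldlrad4 to Gadd45b and Chst15. Foxq1 was nearest to both Smad7 (distance 0.349) and Skil. Pmepa1 was nearest to Junb and Runx1, and Smurf2 to Crlf2 and Zfp827. Foxq1 rose from 21.6 and 15.7 CPM in vehicle to 90.1 and 62.6 CPM at 2 h and 97.1 and 100.5 CPM at 12 h. Ccdc88c, nearest to Smad6, was at 41.4 and 38.0 CPM, then 75.0 and 77.6 CPM, then 38.0 and 37.8 CPM. Among the members themselves, Skil was the nearest to Smad7, at place 7 of the 10003 genes.

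On the chromosomes, 20 genes flanked the 10 members at 27.2 to 884 kb between start sites, and no counted gene overlapped a member. Of the 14 flanking genes tested, 1 rose at 2 h and 1 rose and 1 fell at 12 h (edgeR, adjusted p under 0.05), with a median log2FC of -0.04 at 2 h and -0.10 at 12 h; the shares over all tested genes were 9.91% for rises at 2 h, and 21.8% for rises and 21.5% for falls at 12 h. The gene that rose at 2 h was Smad3, the receptor-regulated Smad of the TGFβ branch, which starts 264 kb from Smad6. It was at 189.6 and 160.3 CPM in vehicle, 369 and 312 CPM at 2 h, and 201 and 208 CPM at 12 h. Smad3 was elevated at 2 h (log2FC 0.96, SE 0.132, edgeR adjusted p 0.00508) and not called at 12 h (0.23, adjusted p 0.207). The gene on the other side of Smad6, Lctl, starts 95.1 kb away and was not called at 2 h (-0.28, edgeR adjusted p 0.779). It fell at 12 h (-4.28, adjusted p 0.00675), from 2.65 and 1.21 CPM in vehicle.

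Other regulators of the pathway were counted in lists written for this purpose. Of 26 tested intracellular regulators outside the set, 2 rose and 1 fell at 2 h, and 4 rose and 4 fell at 12 h (edgeR, adjusted p under 0.05), with median log2FC of -0.03 and -0.01. For this list and those that follow, the shares over all tested genes were 9.91% for rises and 5.25% for falls at 2 h (21.8% and 21.5% at 12 h), and this list's shares did not exceed them. At 2 h none of them was called higher when either vehicle library was left out, and 1 was without replicate 1 of the 2 h group or either 12 h library, while 3 were called lower without replicate 1 of the 2 h group and 2 without replicate 2. At 12 h 2 were called higher when any 1 vehicle or 12 h library was left out. Nedd4l, a ubiquitin ligase that also acts on Smad2 and Smad3, was among those that fell at 12 h. It was at 69.4 and 72.7 CPM in vehicle, 61.1 and 52.3 CPM at 2 h, and 11.8 and 13.1 CPM at 12 h (log2FC -2.52 at 12 h, edgeR adjusted p 5.1e-05). The phosphatase gene Ctdspl also fell at 12 h, with a log2FC of -1.69. Of 10 corepressor partners, 3 rose at each time, with a median log2FC of 0.04 at 2 h and 0.18 at 12 h, but 0 were called at 2 h without replicate 1 of the vehicle group.

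Outside the cell, 2 of 5 tested secreted antagonists rose at 2 h, and 2 rose and 1 fell at 12 h. Nbl1, a BMP antagonist, rose at both times (log2FC 1.63 and 1.99), Bmper rose at 12 h (2.76) and Lefty1, which blocks Nodal signaling, fell at 12 h (-1.55). Lefty1 dropped below the abundance needed for a test when either vehicle library was left out, and the count at 2 h was 1 without either vehicle or either 12 h library. Of 8 tested genes of TGFβ latency and activation, 6 rose at 2 h and 8 at 12 h, with medians of 1.40 and 1.79, and 3 rose at 2 h without either vehicle or either 12 h library. They included Itgb6, the integrin subunit that releases latent TGFβ (2.54 and 2.06), and Furin, which cleaves the precursor (1.58 and 1.57).

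Of 8 tested receptors, 3 rose at 2 h, and 3 rose and 1 fell at 12 h, with medians of 0.04 and 0.41. The fall at 12 h was not called when any 1 vehicle or 12 h library was left out, and 3 receptors were called lower at 2 h without replicate 1 of that group. Tgfbr1, the type I receptor of TGFβ, had log2FC of 2.5 and 1.43, and its 12 h call was lost without replicate 2 of the vehicle group (adjusted p 0.0833), replicate 1 of the 12 h group (0.114) or replicate 2 of the 12 h group (0.0502). Acvr1, another type I receptor, had log2FC of 2.87 and 2.42, and Bmpr2, a type II receptor of BMPs, 1.19 and 1.15. Of 5 tested signal-carrying Smads, 1 rose at 2 h, the Smad3 described above.

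Textbook target genes of the TGFβ and BMP branches were counted in the same libraries. Of 9 tested TGFβ targets, 8 rose at each time, with median log2FC of 2.59 at 2 h and 3.84 at 12 h; Itgb6 is counted here and under latency and activation, and Col1a1 here and among the fibroblast markers. They included Ctgf, a matricellular protein (3.06 and 6.13), and Junb (3.51 and 3.98), a subunit of AP-1. Of 4 tested BMP targets, 2 fell at 2 h and 4 fell at 12 h, with medians of -0.49 and -1.97. The count at 2 h was 1 without replicate 1 of the vehicle group or either 12 h library. Id3, an inhibitor of basic helix-loop-helix factors, changed by -1.06 at 2 h and -2.05 at 12 h. The list was not uniform at 2 h: Id1 was at 0.09 (edgeR adjusted p 0.710) and Hey1 at 0.98 (adjusted p 0.0740), neither of them called.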

How the data were processed

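Stranded total RNA-seq was made from 6 libraries, 2 biological replicates for each of 3 groups. Per the methods of the study, the authors filtered 50-base reads, aligned them to mm9 with Rsubread, kept unique reads, removed duplicates with SAMtools 0.1.19 and counted them over exons with featureCounts. The deposited values are raw counts of 21240 genes, with no normalization. Duplicate removal lowers the counts of abundant genes most.

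The 11080 genes that reached 2 CPM in 2 or more libraries were tested in R 4.3.3 with edgeR 4.0.16 (TMM factors, quasi-likelihood test, all 6 libraries in 1 fit, two-sided), with Benjamini-Hochberg adjustment over those genes for each contrast. The SE is the absolute log2FC divided by the square root of F. Levels are means over 2 libraries, and precision is limited by that number. Count ratios of related genes were compared by exact permutation tests. The method was tested on simulated data.

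Members and gene lists were chosen with earlier results of these data known. The genes named outside the set are, per list, up to 6 robustly called genes with the largest log2FC at either time and 10 or more counts in each library of the higher group, the 2 genes nearest in profile to each member (log2 of CPM + 0.25, mean of at least 5 CPM) and Tgif2. Marker genes, Smad3 and Lctl were named after their values were seen. Some genes that this rule names are not reported here. Positions and exon lengths were read from the GENCODE annotation of NCBIM37 (mm9), with 18958 genes matched by symbol, 1651 by synonym and 631 without a position; the exon lengths are not those of the gene models used in counting. Promoters came from RefSeq (GRCm38.p6).

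Alternatives were limma-voom (limma 3.58.1), DESeq2 1.42.0, DESeq2 size factors, total counts, a minimum of 10 counts in all libraries, no filter, a replicate block, only the groups compared, and each library left out.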

Additional observations from a re-analysis of the deposited data

Results flagged for a closer look

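The effect at 12 h differed from that at 2 h, by the contrast of the 2 times in the edgeR fit, for 3 of the 9 tested genes. Over all tested genes, 15.2% were called higher and 18.9% lower, so this count is near the share of all tested genes. The Smurf1 call was lost in 3 of 14 alternative fits. The differences in log2 were -1.16 for Smad6 (adjusted p 0.00117), -0.86 for Ski (adjusted p 0.00133) and -0.40 for Smurf1 (adjusted p 0.0218), each lower at 12 h in both libraries.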

How the results depend on the processing

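Of 378 recomputed member log2FC values, 366 kept their side of the threshold, 6 lost a call, 6 gained one and 0 called values changed sign; the uncalled differences of Skil, Smurf2 and Pmepa1 between 12 h and 2 h did change sign when some libraries were left out. The members called at 2 h numbered 8 to 9 and at 12 h 8 when a library was left out. With the replicate block, 6 members in place of 3 were called between 12 h and 2 h: Smad7 (0.63, adjusted p 0.00470), Tgif1 (0.49, adjusted p 0.00368) and Ldlrad4 (0.51, adjusted p 0.0193) were added. The labels do not say that replicate numbers pair the samples. Deviations of same-numbered libraries correlated across genes at 0.708 (vehicle and 2 h), 0.263 (vehicle and 12 h) and 0.392 (2 h and 12 h). With no filter, 2 members in place of 1 fell robustly between the times, Bambi being added. Leaving out single libraries gave TGFβ minus vehicle differences of 1.53 to 2.27 for the log2 ratio of Smad7 to Smad6, -0.57 to -0.087 for Skil to Ski and 0.15 to 0.32 for Smurf1 to Smurf2, and 2 to 4 members called between 12 h and 2 h. The cause of these changes was not tested. With 2 libraries per group, whether the smaller differences between the times were called depended on the fit, and Bambi's low counts limit its values. Vehicle at 2 h alone limits the comparisons of 12 h with vehicle.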
